A study of Mus musculus with 2 samples.

Results

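Integrins and the proteins of focal adhesions were examined as 43 named mouse genes, of which 26 encode integrin subunits and 17 encode adaptors and actin linkers, out of 21887 protein-coding genes. The list is a set of gene names, drawn up with earlier results of these data known. The subunits were divided by the cells they are best known from: 12 mesenchymal, 9 leukocyte and platelet, and 5 epithelial. Several subunits are not exclusive to a class: Itgb1 is expressed by almost all cells, Itgb3 also by platelets, Itgb8 also by epithelia, and Itga4 also outside the blood lineages.

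Open chromatin was measured by ATAC-seq, in which Tn5 transposase cuts accessible DNA, in liver nuclei sorted on mCherry-RPL10A. The 2 samples, replicates A and B, form 1 group of healthy, chow-fed control mice of strain C57BL6/JBomTac. Both carry Gt(ROSA)26Sortm1(mCherry-Rpl10a-Flop)Kra and Tg(Lrat-cre)1Rshw, labelled B6.Cg. The Lrat promoter that drives Cre is active in hepatic stellate cells, pericytes of the liver sinusoid that store vitamin A. Age, sex, and whether animals were pooled or A and B came from separate animals are not given in the sources used here, so the spread between A and B may be technical. Entries of B are named with the prefix "Oil" in the deposited list, which its label of a chow-fed control does not mention. Groups follow the label, and values are given for each replicate throughout.

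Integrins are paired alpha and beta subunits that span the membrane and bind matrix or other cells. Inside the cell, talin and kindlin bind the beta tail and switch the receptor to its active form. Vinculin, paxillin, the kinases FAK and ILK, parvin, tensin, zyxin and alpha-actinin then join the receptor to actin and to signalling. In stellate cells, integrins that contain the alpha-v subunit are known for releasing TGF-beta from its latent complex, a step in fibrosis.

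A peak is called replicated where an entry of A and an entry of B share at least 1 bp, and a locus here means the gene body plus 20 kb on either side in mm10. A holds 36577 entries and B 28794, and 23452 entries of A are replicated. Depth is unknown, since these files hold peaks and not reads. The labelled cell type was checked on markers. The marker lists were chosen with earlier results of these data known. Of 12 stellate cell markers, 12 had a replicated peak in the gene body, against 48.7% of all protein-coding genes. At 11 of the 12, one lay within 1 kb of an end of the gene, against 41.9%. Of 10 leukocyte markers, 10 hepatocyte and cholangiocyte markers and 8 endothelial markers, the numbers with a replicated peak in the body were 0, 0 and 3. Of 6 platelet markers it was 2, and Pf4, the platelet factor gene, had one at its own end. The endothelial and platelet shares, 37.5% and 33.3%, lay nearer that of all genes. Median body lengths of the marker lists ran from 2.87 kb (platelet) to 53.7 kb (endothelial), against 17.2 kb over all genes. Stellate markers had 24.1 kb, leukocyte markers 11.3 kb, and hepatocyte and cholangiocyte markers 12.6 kb. The part of gene length in these counts was not tested.

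Promoter sequence was set beside the peaks first, because a replicated peak over an annotated start shows accessibility at that start in both replicates. Of the 43 genes, 31 have at least 1 start in the RefSeq promoter table (GRCm38.p6, which shares its coordinates with mm10), with 35 starts in all. A replicated peak overlapped the window from 250 bases before to 50 after a start at 11 of the 31 genes (35.5%), against 40.6% of 17492 protein-coding genes in the table. These were 3 mesenchymal subunits, Itga1, Itgav and Itgb1, and 8 adaptor genes, Tln1, Vcl, Fermt2, Ilk, Zyx, Actn1, Actn4 and Bcar1. None of the 5 leukocyte and platelet or the 3 epithelial genes with a window was among them. Replicated peaks near a start but outside its window, as at Itga5 and Itgb8, are not counted here, nor are genes without a start in the table. The 250 bases before the start are shown for the 3 integrin promoters and for 3 of the adaptor promoters that hold a searched motif, Vcl, Fermt2 and Zyx. They are also shown for 2 integrins without a replicated peak at the start, Itga8 of mesenchyme and Itgam of myeloid cells. Capitals mark GGGCGG (GC box), GGAATG (TEAD), TGANTCA (AP-1), CCGGAAG (ETS) or a CArG box (the site of serum response factor), each searched on both strands.
Itgb1, chr8:128685404-128685653, strand plus: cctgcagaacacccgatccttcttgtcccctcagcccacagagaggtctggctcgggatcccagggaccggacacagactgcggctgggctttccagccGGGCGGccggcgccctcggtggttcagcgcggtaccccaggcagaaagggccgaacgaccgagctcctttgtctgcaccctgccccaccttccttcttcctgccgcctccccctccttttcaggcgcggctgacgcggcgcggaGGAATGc
Itgav, chr2:83724147-83724396, strand plus: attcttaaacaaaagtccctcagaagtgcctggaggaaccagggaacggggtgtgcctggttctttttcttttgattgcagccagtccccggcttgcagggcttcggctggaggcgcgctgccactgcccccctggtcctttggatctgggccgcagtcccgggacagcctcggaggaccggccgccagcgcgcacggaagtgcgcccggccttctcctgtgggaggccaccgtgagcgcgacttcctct
Itga1, chr13:115101965-115102214, strand minus: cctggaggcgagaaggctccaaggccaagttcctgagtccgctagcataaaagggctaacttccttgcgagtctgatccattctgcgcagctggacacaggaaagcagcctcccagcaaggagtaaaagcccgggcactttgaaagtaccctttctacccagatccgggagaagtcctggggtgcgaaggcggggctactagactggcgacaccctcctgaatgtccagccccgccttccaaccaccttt
Vcl, chr14:20929148-20929397, strand plus: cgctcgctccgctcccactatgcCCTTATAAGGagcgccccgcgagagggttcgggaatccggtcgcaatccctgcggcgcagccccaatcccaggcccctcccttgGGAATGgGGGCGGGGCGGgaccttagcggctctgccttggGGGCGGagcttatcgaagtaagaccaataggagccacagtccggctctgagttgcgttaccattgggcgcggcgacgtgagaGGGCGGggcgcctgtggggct
Fermt2, chr14:45530066-45530315, strand minus: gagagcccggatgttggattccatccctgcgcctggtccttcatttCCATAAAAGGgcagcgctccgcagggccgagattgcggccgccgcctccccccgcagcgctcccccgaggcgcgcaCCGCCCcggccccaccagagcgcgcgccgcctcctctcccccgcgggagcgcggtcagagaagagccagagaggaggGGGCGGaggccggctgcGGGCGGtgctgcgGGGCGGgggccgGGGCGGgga
Zyx, chr6:42349578-42349827, strand plus: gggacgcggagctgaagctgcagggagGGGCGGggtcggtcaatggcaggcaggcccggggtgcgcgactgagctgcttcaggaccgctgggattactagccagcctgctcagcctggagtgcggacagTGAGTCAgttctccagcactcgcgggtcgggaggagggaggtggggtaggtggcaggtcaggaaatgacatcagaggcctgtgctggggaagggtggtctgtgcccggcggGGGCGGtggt
Itga8, chr2:12301945-12302194, strand minus: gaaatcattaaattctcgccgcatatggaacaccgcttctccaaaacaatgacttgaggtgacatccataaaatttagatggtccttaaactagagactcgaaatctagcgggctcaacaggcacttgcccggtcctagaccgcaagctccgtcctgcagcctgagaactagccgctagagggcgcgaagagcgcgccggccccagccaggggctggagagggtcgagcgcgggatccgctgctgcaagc
Itgam, chr7:128062390-128062639, strand plus: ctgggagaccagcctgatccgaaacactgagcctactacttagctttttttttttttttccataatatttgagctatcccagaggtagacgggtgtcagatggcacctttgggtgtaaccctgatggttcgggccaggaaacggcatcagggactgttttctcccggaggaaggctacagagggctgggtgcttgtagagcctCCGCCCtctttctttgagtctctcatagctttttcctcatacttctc

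The printed windows differed in the motifs they hold. That of Vcl held a CArG box 227 bases before the start, GGAATG 143 bases before it and 4 GC boxes, of which the pair at 136 and 131 bases shares a base. That of Fermt2 held a CArG box at 204 bases and 5 GC boxes. All 250 bases of both windows lay under a replicated peak. The window of Zyx held TGAGTCA 121 bases before the start, also under its peak. In the window of Itgb1, GGAATG lay 7 bases before the start and under the peak, while the GC box at 151 bases lay outside it. No searched motif was found in the windows of Itgav, Itga1 and Itga8, and that of Itgam held 1 GC box, on the opposite strand. The window of Actn4, not printed, held TGANTCA at 169 bases, GGAATG at 216 bases and 3 GC boxes, all under its peak. Windows of Actn1, Ilk and Bcar1, also not printed, held searched motifs too.

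Over all 35 windows, a CArG box was found in 3 (8.57%), those of Vcl and Fermt2 and the inner start of Itgb6, against 1.39% of 21263 windows of protein-coding genes. The GC box was in 18 (51.4%) against 42.6%, GGAATG in 4 (11.4%) against 11.7%, TGANTCA in 3 (8.57%) against 6.13%, and CCGGAAG in 3 (8.57%) against 8.98%. The CCGGAAG of both Ilk windows is the same site. These matches describe letters in the sequence and show no binding. CpG dinucleotides were also counted. The 12 member windows under a peak held a median of 21 CpG and the 23 others 10. Over all genes these medians were 18 and 4. None of the 11 member windows with fewer than 10 CpG lay under a replicated peak, against 11.9% of all such windows, and 12 of the 24 richer ones did, against 62.7%.

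Across the loci, 38 of 43 genes had at least 1 replicated peak, where 64.6% of all protein-coding genes did. They held 191 replicated peaks, from 297 entries of A and 229 of B, and no peak was shared by 2 of the genes. The median was 3 per locus against 1 over all protein-coding genes, and 15 genes had 5 or more, against 6.40% of all. The genes are long, with a median body of 62.5 kb against 17.2 kb. Per 100 kb of locus, the list held 3.51 replicated peaks against 1.77 over all genes. No test was made between gene lists, because genes are not replicates and there was no second condition.

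By class, a replicated peak lay in the locus of all 12 mesenchymal subunit genes and all 5 epithelial ones. The same held for 16 of 17 adaptor genes and 5 of 9 leukocyte and platelet genes, against 64.6% of all protein-coding genes. Medians were 3.5, 2, 6 and 1 in the same order, beside 1 over all genes. Among the 10000 strongest entries of each list they were 0.5, 1, 1 and 0, beside 0 over all genes. The mesenchymal median then stood below the epithelial one. In the gene body the numbers were 10 of 12, 3 of 5, 15 of 17 and 2 of 9, against 48.7% of all protein-coding genes. At an own end, meaning within 1 kb of either boundary of the gene, they were 6 of 12, 0 of 5, 9 of 17 and 1 of 9, against 41.9%. Without Itgb1, Itgb3 and Itgb8, which other classes share, the mesenchymal number was 3 of 9, a share below that of all genes but near it. The start peaks of Itgav and Bcar1 are not in these counts, because those starts lie more than 1 kb inside the gene boundary. Per 100 kb the values were 3.34, 2.14, 4.46 and 1.69, beside 1.77 over all genes. Over the whole locus, the leukocyte and platelet class thus stood near all genes. With A alone, 2 epithelial and 2 leukocyte and platelet genes had an own-end peak, against 47.0% of all genes. The epithelial median was then 5, against 2 over all genes. With B alone the leukocyte and platelet median was 2, against 1. In bulk nuclei, a peak open in a few cells and one weakly open in many cannot be told apart.

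**Figure D1:**
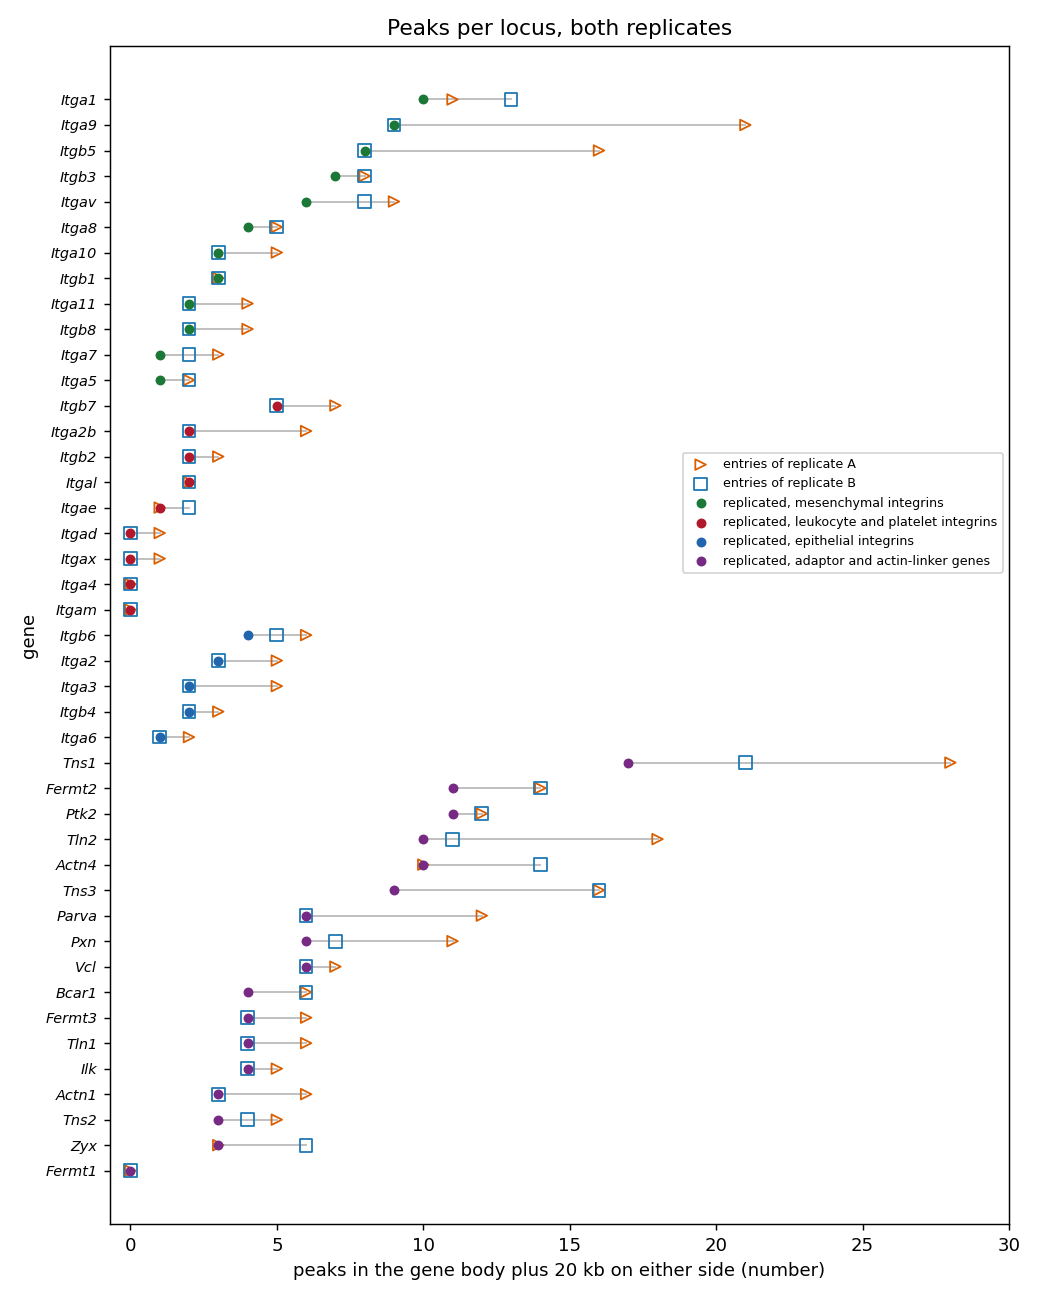
Peaks in the body plus 20 kb of each of the 43 genes (x axis, number) by gene (y axis), with open triangles for entries of replicate A, open squares for entries of replicate B and filled circles for replicated peaks, coloured by class. Tns1 reaches 17 replicated peaks, while Itga4, Itgam, Itgad, Itgax and Fermt1 sit at 0.

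Among mesenchymal alpha subunits, Itga1 and Itga9 had the most peaks. Itga1, which encodes a receptor subunit for collagens and laminins, lies at chr13:114958079-115101964 and had 11 entries in A, 13 in B and 10 replicated peaks, all in the body. The peak over its start, chr13:115101581-115102128, had a fold enrichment, the authors' value over local background, of 9.95 in A and 10.5 in B. Its strongest by mean rank, 70.6 kb inside the gene from that start, had 12.7 and 12.3. The replicates thus gave like values at both sites. A pair of the 10 peaks lay at an end of Pelo, a gene nested in the body of Itga1.

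Itga9, a subunit that binds tenascin and osteopontin, had 21 entries in A but 9 in B. All 9 of B were replicated, in the body and away from every gene end, while 12 entries were found in A alone. The strongest, chr9:118654958-118655459, had 19.5 in A and 15.0 in B and ranked at percentiles 93.6 and 84.7 of its lists. The table's only start for Itga9 lies inside the gene and had no peak in either replicate.

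Itga8 encodes the alpha subunit that binds nephronectin and fibronectin and is known from stellate cells and other pericytes. It had 5 entries in each replicate and 4 replicated peaks, all inside the gene at chr2:12106632-12301985. The strongest, chr2:12189059-12189416, had the same value to 3 digits, 17.1, in both replicates and lay 112.7 kb into the gene. Another, 7.7 kb from the start, had 15.0 and 11.0. Over the start itself, B alone had an entry, at 9.35, so the promoter printed above had a peak in 1 replicate of 2.

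Itgav, the alpha-v subunit, had 9 entries in A, 8 in B and 6 replicated peaks. The one over its start, chr2:83724244-83724532, had 12.4 in A and 12.2 in B. The strongest lay 9.5 kb before the start, at chr2:83714765-83715040, with 18.2 and 14.2. Its values were higher than at the start in both replicates. The remaining alpha subunits had fewer. Itga11, a fibrillar collagen receptor subunit, had 2, both in the body. Itga5, of the fibronectin receptor, had 1, at 10.7 and 8.79, which lay 0.2 kb inside the start, beyond the promoter window. Itga10, known from cartilage, had 3 and Itga7, known from muscle, had 1, and these all lay at an end of another gene, outside the body. Entries of A alone lay in the body of each, at 12.8 for Itga10 and 10.0 for Itga7.

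The beta subunits of this class share alpha-v as a partner. Itgb5 had 16 entries in A, 8 in B and 8 replicated peaks, all in the body at chr16:33829665-33949338. The best ranked, chr16:33895719-33896083, had 13.9 in A and 13.5 in B. The one highest in A, chr16:33941213-33941616, had 15.8 and 11.9, and the one at its own end had 9.20 and 7.79. As at Itga9, every entry of B was replicated and A held further ones. Itgb3 had 8 entries in each replicate and 7 replicated peaks, 3 of them in the flanks, of which the best ranked had 11.8 and 12.3. The one at its own end had 7.73 and 6.03, near the bottom of the list of B, at percentile 4.9. Itgb8, whose product with alpha-v activates latent TGF-beta, had 2, of which the one 0.46 kb outside the gene had 11.8 and 14.6. That peak was stronger in B, unlike most peaks of the class, of which 38 of 56 were higher in A.

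Itgb1 encodes the beta subunit shared by most matrix receptors and had 3 entries in each replicate, all replicated. The peak over its start, chr8:128685517-128685850, had 13.5 in A and 10.7 in B. A stronger one lay 5.6 kb before the start, at chr8:128679898-128680272, with 21.3 and 17.2. It was the highest value of any mesenchymal subunit in both replicates, and it lay away from all gene ends.

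Leukocyte and platelet integrins had few peaks of their own. In the beta-2 family of myeloid and lymphoid cells, Itgam had no entry in either replicate, and Itgax and Itgad, whose flanks overlap, shared a single entry of A, at 6.37, with none in B. Itgb2, their shared beta subunit, had 3 entries in A, 2 in B and 2 replicated peaks, at 16.9 and 13.1 and at 18.5 and 13.9 in A and B, which lay at ends of Fam207a and Pttg1ip. The further entry of A, chr10:77545039-77545250, lay in the body of Itgb2, at 10.5 and percentile 55.1. Itgal, the alpha subunit of the lymphocyte receptor for ICAM proteins, had 2 entries in each replicate, both replicated and both at an end of Zfp768. The stronger had 15.3 in A and 11.4 in B. None of the replicated peaks of these genes lay in the body of an integrin gene. Itga4, the subunit through which lymphocytes bind VCAM, had no entry in A or B over chr2:79255426-79333114 and its flanks.

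The other 3 genes of the class each had a replicated peak in the body or within 1 kb of a boundary. Itgb7 had 7 entries in A, 5 in B and 5 replicated peaks, none in its body. The strongest, chr15:102203355-102203683, had 20.9 in A and 18.4 in B, the second highest of the 191 by mean percentile, and lay 12.3 kb outside the gene at an end of Zfp740. Another lay 0.56 kb outside its upper boundary, with 13.0 in both replicates, and was also within 1 kb of an end of Rarg, a retinoic acid receptor gene. A further 3 lay inside Rarg, and the start of Itgb7 in the table had no peak in either replicate. In the body of Itgb7, A alone had an entry, at 8.97. The only replicated peak of Itgae lay in its body but at an end of Haspin, a gene nested there, with 10.0 in A and 7.67 in B.

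Itga2b, the alpha subunit of the platelet fibrinogen receptor, differed from these. It had 6 entries in A, 2 in B and 2 replicated peaks, both in the body and away from all gene ends. The stronger, chr11:102466998-102467394, 2.7 kb inside the start, had 19.7 in A and 16.0 in B, at percentiles 93.9 and 88.3. It was among the 10 highest of the 191 peaks by mean percentile. Over the start itself, A alone had an entry, at 4.83. Of the 6 platelet markers, 5 had a replicated peak in the locus, against 64.6% of all genes, with 0 at Gp9 and 1 at each of the others. Pf4 and Ppbp are neighbours and share theirs, at 15.6 in A and 5.26 in B, and that of Gp1ba lay at ends of Rnf167 and Slc25a11. That of Gp6 lay in its body, away from all gene ends, at 11.6 in A and 16.6 in B. That of Gp1bb lay in the flank, also away from all gene ends. The part of platelet-lineage cells in the result was not tested.

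Of 10 leukocyte markers, 3 had a replicated peak in the locus, against 64.6% of all protein-coding genes. The peaks, 8 over the whole list, all lay outside the marker genes. The median body of these markers was 11.3 kb, against 17.2 kb over all genes. Ptprc, which encodes the common leukocyte antigen, and Adgre1, Clec4f, Cd3e and Lyz2 had no entry in either replicate.

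**Figure D2:**
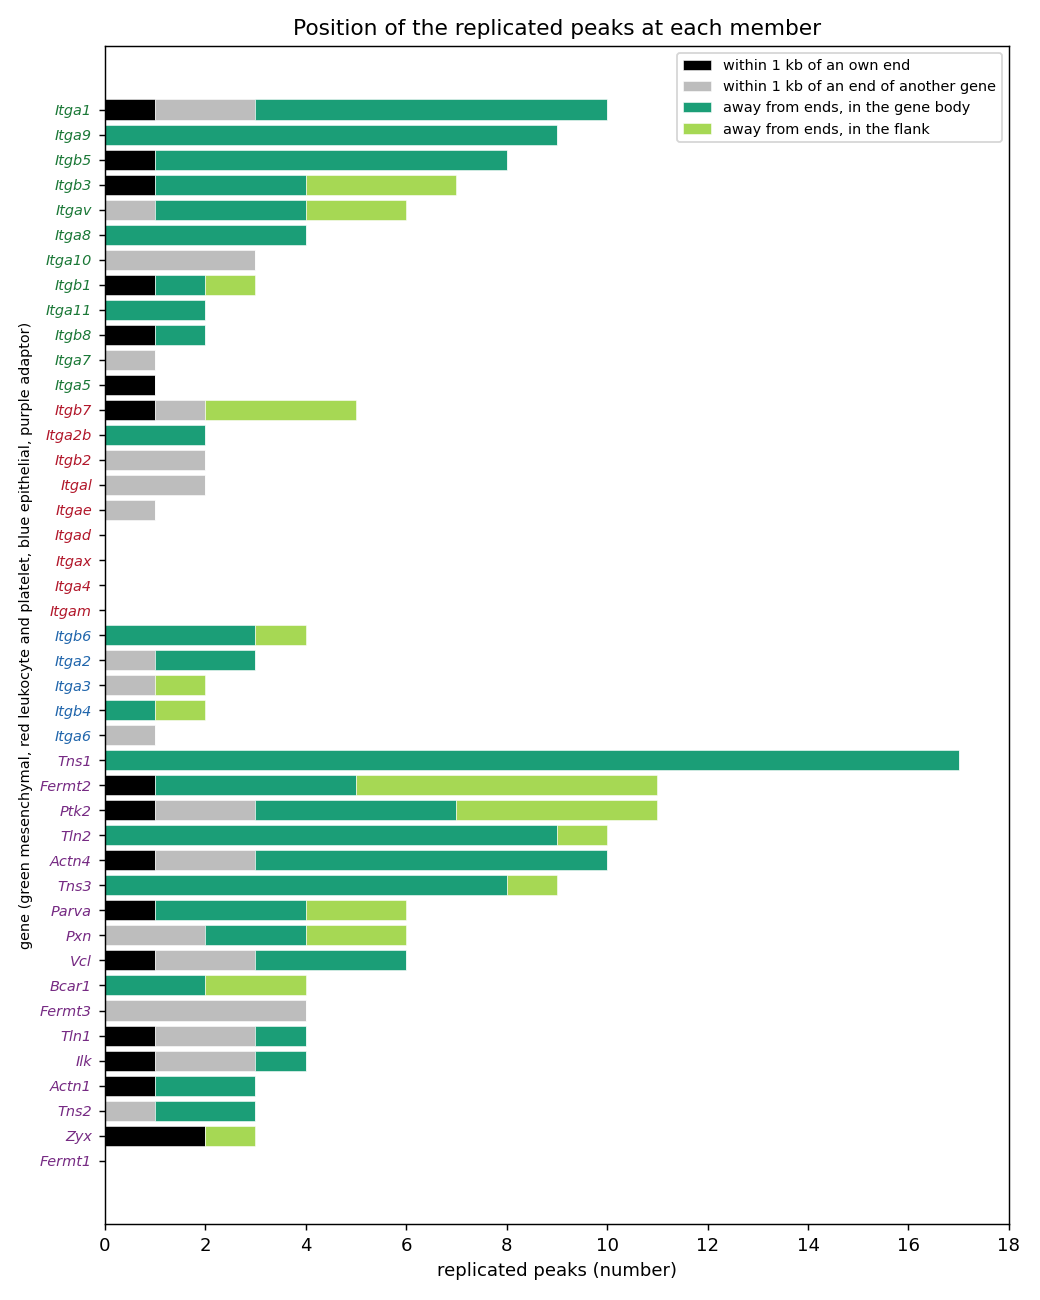
Replicated peaks of each gene (x axis, number; y axis, gene, with label colour for class) divided into those within 1 kb of an own end, those as near to the boundary of another coding gene, and those away from all ends in the body or in the flank. Of the 12 peaks at leukocyte and platelet genes, 7 lie at a gene end, against 13 of 56 at mesenchymal genes.

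Epithelial subunits had replicated peaks in every locus but none at an own end. Itgb6, whose product with alpha-v activates latent TGF-beta in epithelia, had 6 entries in A, 5 in B and 4 replicated peaks. The strongest, chr2:60698130-60698662, had 11.9 and 9.84 and lay in the body. Itga2, of a collagen receptor, had 5 entries in A, 3 in B and 3 replicated peaks, of which chr13:114896882-114897069, in the body, had 12.3 in A and 15.9 in B. These 2 genes held 5 of the 6 body peaks of the class. Itgb4, of the hemidesmosome, had 3 entries in A and 2 in B. It held the sixth, at 7.57 and 8.11, and had a stronger one of 18.6 and 14.2 inside H3f3b, a histone gene in the flank. A alone had a further entry in that flank, at 15.3. Itga3 and Itga6, both of laminin receptors, had none in the body. Itga3 had 5 entries in A, 2 in B and 2 replicated peaks. The strongest peak at Itga3, 20.8 and 17.8, lay at an end of Pdk2, and the only one at Itga6, 16.6 and 15.7, at an end of Pdk1. A alone had an entry over a start of Itga3, at 6.68, and one in the body of Itga6, at 8.56. Of 10 hepatocyte and cholangiocyte markers, 2 had a replicated peak in the locus and 0 in the body. Over all protein-coding genes the shares were 64.6% and 48.7%, with a median body of 17.2 kb against 12.6 kb for the markers.

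Adaptor genes held 111 of the 191 replicated peaks. The tensins, which tie integrin tails to actin, ranged widely in number and had no replicated peak at their starts. Tns1 had the most of any of the 43 genes, with 28 entries in A, 21 in B and 17 replicated peaks, all in its body at chr1:73910232-74124548 and all away from gene ends. The strongest, chr1:73923240-73923676, 201.1 kb from the start, had 17.8 and 13.6. The weakest had 4.35 and 5.65, so strong and weak peaks stood in the same gene. Over its start B alone had an entry, at 8.13. Tns3 had 16 entries in each replicate but 9 replicated peaks, with 7 in A alone and 7 in B alone, and none at its start. Tns2 had 3, of which 2 lay in the body at 6.33 and 6.95 in A and 5.27 and 6.32 in B.

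Talins and kindlins are the proteins that activate integrins. Tln1, the widely expressed talin, had 4 replicated peaks, and the one over its start, 10.4 and 7.65, also lay at an end of Creb3. Tln2, the talin of muscle and brain, had 18 entries in A, 11 in B and 10 replicated peaks, 9 of them in a body of 417.0 kb. Its strongest, chr9:67566027-67566310, had 19.1 in A and 11.8 in B. The kindlin genes differed in number. Fermt2, the kindlin of mesenchyme and muscle, had 14 entries in each replicate and 11 replicated peaks, 5 in the body and 6 in the flanks. Its strongest, chr14:45463728-45464200, had 15.0 in A and 19.6 in B, the highest value of B at any of the 43 genes, and the one over its start had 14.1 and 10.1. Fermt3, the kindlin of blood cells, had 4, all at ends of other genes and none in the body. Among the 10000 strongest entries of each list the order was reversed, with 1 replicated peak at Fermt2 and 2 at Fermt3. In the body of Fermt3, A alone had 2 entries, at 11.0 and 10.7, percentiles 59.1 and 56.1. Fermt1, the kindlin of epithelia, had no entry in either replicate.

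Vcl, which encodes vinculin, had 7 entries in A, 6 in B and 6 replicated peaks. The peak over its start, chr14:20929013-20929492, had 22.2 in A and 17.6 in B, the highest of the 12 starts with one in both replicates. A still stronger peak of the locus, 26.6 and 19.2, lay 18.7 kb outside the gene at ends of Adk and Ap3m1. Zyx, which encodes zyxin, had 3 entries in A, 6 in B and 3 replicated peaks. The one over its start, chr6:42349399-42350101, had 14.8 and 15.3. The other at an own end lay at the opposite boundary and was shared with an end of Epha1.

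The actin cross-linkers were both open at the start. Actn4 had 10 entries in A, 14 in B and 10 replicated peaks, of which 8 lay in the body and the start peak had 13.5 and 10.7. The strongest, chr7:28911648-28912053, had 17.3 and 17.7. One of its peaks, chr7:28917517-28918506, was 990 bp wide, the widest of the 191, against a median of 275 bp. Actn1 had 3, with 13.6 in A and 7.48 in B at the start. Unlike at Zyx, the value of B there was well below that of A.

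The kinase and scaffold genes followed. Ptk2, which encodes FAK, had 12 entries in each replicate and 11 replicated peaks. The peak at its own upper end, chr15:73423084-73423398, had 15.5 and 12.2, and 4 further peaks in the body lay toward the lower boundary. Ilk, in a body of 6.3 kb, had 4, with 12.9 and 14.8 at the start, a peak that also lay at an end of Rrp8. Parva, whose product binds ILK, had 12 entries in A and 6 in B, all 6 replicated, with a strongest of 17.3 and 16.3. Pxn, which encodes paxillin, had 6, of which 2 lay in the body, and the best ranked, 17.9 and 17.6, lay in the body of Sirt4. A alone had an entry in the body of Pxn at 19.3, percentile 93.2, above all its replicated peaks in A. Bcar1, a scaffold of the Cas family, had 4. The table holds more than 1 start for Bcar1: the inner one had a peak of 14.4 and 12.9, and the outer one had none in either replicate.

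**Figure D3:**
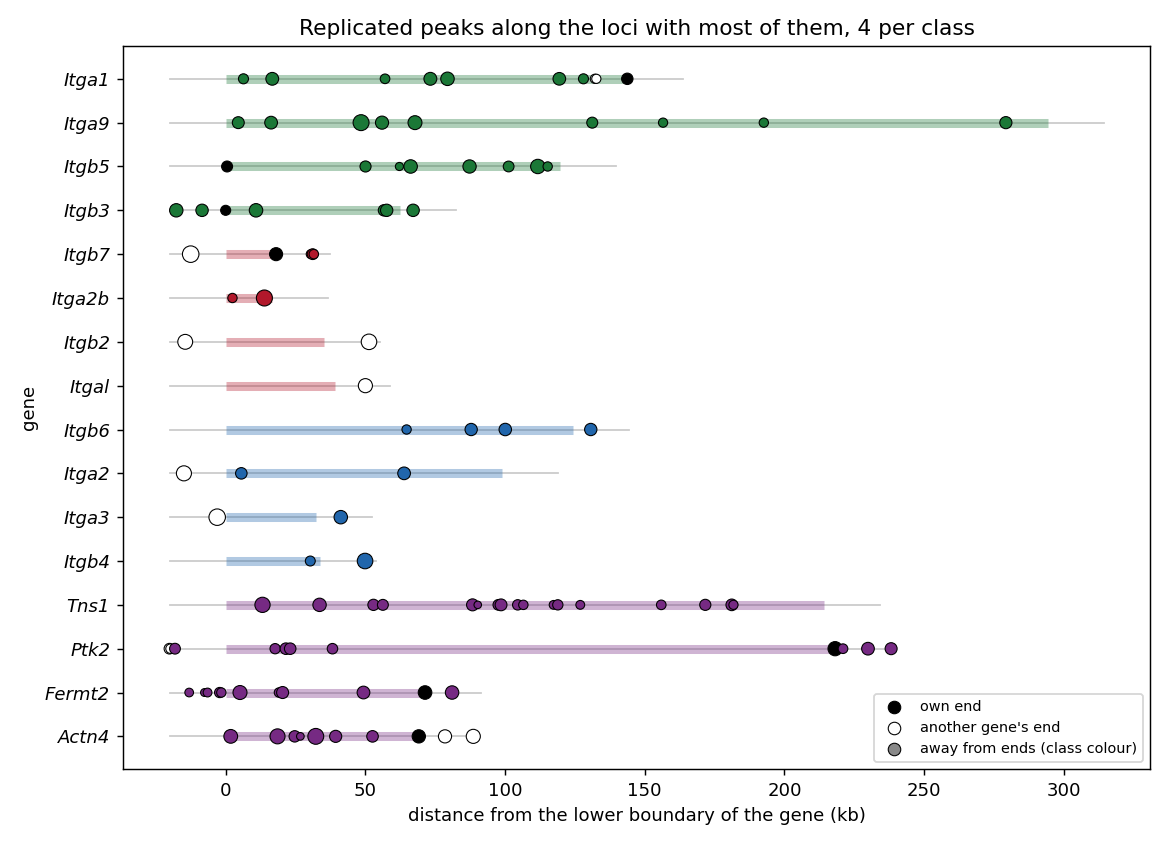
Replicated peaks along the 4 loci per class with most of them, as distance from the lower gene boundary (x axis, kb) by gene (y axis). Thick bars are gene bodies, thin lines the 20 kb flanks, and circle area follows the fold enrichment in A; peaks of Itga9 and Tns1 lie inside the bodies, those of Itgb2 and Itgal outside.

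Of the 191 replicated peaks, 50 (26.2%) were near a gene end (1 kb or less from a boundary of any protein-coding gene), where 45.5% of all 19432 replicated peaks within 20 kb of such a gene did. Long genes have more room away from ends, and this difference was not tested. Own ends held 17 of the 50 and ends of other genes 33. At 7 genes, Fermt3, Itga10, Itga6, Itga7, Itgae, Itgal and Itgb2, every replicated peak was at a boundary of some other gene. The flank limit also decides some members: 16 replicated peaks lay 15 to 20 kb outside a gene, the last at 19.99 kb from Ptk2, and 17 lay 20 to 25 kb outside, the first at 20.08 kb from Itgav.

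Fold enrichment at these loci was lower in B than in A, as in the lists as a whole. Medians over the 191 peaks were 11.0 in A and 9.21 in B, against 11.9 and 10.4 over all replicated peaks, and the log2 ratio of B to A had a median of -0.19 ± 0.40 (SD over 191 peaks) against -0.15 ± 0.40 over all. Across the 191 peaks, which share 2 libraries and a caller, Spearman's rho between A and B was 0.67, against 0.68 over all 23452. Peaks at an own end had medians of 13.0 and 10.7, those at ends of other genes 15.0 and 11.4, and those away from ends 10.1 and 8.54. The class medians in A lay between 10.2 for adaptors and 12.1 for epithelial genes. Entries seen in A alone numbered 106, at a median percentile of 23.9 of their list, and those in B alone 37, at 13.9, so both medians lay in the lower part of their lists. The highest of these by percentile were those of A at Pxn, 93.2, and in the flank of Itgb4, 82.5.

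**Figure D4:**
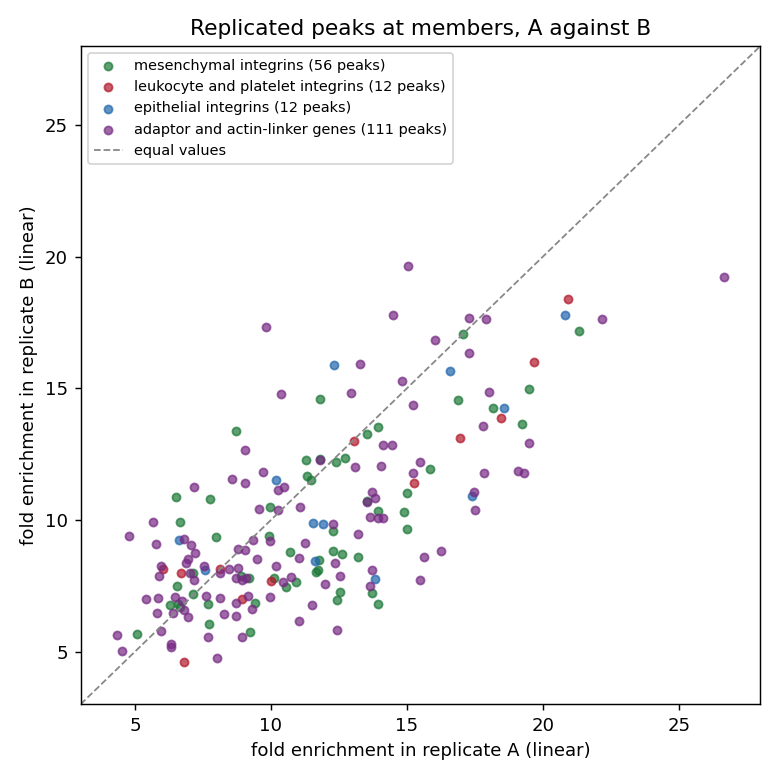
Fold enrichment of each of the 191 replicated peaks in replicate A (x axis, linear) against replicate B (y axis, linear), coloured by class, with a dashed line at equal values. Most points, 125 of 191, lie below the line, and the classes overlap.

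Other genes of the pathway were 35 names of kinases, exchange factors, LIM proteins and scaffolds. A replicated peak lay in the locus of 33 (94.3%), in the body of 27 (77.1%) and at an own end of 21 (60.0%). Over all protein-coding genes these shares were 64.6%, 48.7% and 41.9%. The 35 genes had a median of 3 per locus and 2.46 per 100 kb, against 1 and 1.77. Their median body was 36.3 kb, against 17.2 kb. Nedd9, a relative of Bcar1, had 9 replicated peaks, and Kank2, whose product binds talin, had 7. Parvg, the parvin of blood cells, and Cav1, which encodes caveolin, had no entry in either replicate.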

How the data were processed

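The authors deposited 1 peak list per sample, in mm10. Per the submitters' processing notes, the tools were MACS2, HOMER, STAR 2.7.0, Picard, SAMtools and bedtools, each without a stated role; the sources used here do not say whether reads were shifted for the Tn5 offset. The deposited fold enrichment is a linear ratio over local background, the deposited −log10 p and q values belong to each list, and the deposited score (10 times −log10 q) was not used. No values are scaled between libraries.

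Peaks were intersected (1 bp minimum) and counted per locus with Python 3.11.15, numpy 2.4.6, pandas 2.3.3 and matplotlib 3.10.9, using gene spans and promoter sequences of RefSeq GRCm38.p6. All 43 names matched. The gene table holds no strand, so both boundaries count as ends; starts come from the promoter table. In 816 of 816 overlaps, its windows of opposite strand were reverse complements. Counting recovered the known number at 200 of 200 genes in simulated data. Entry counts and the strongest peaks are given for the 4 genes per class with most replicated peaks, and every gene with none is named, except that some of the other adhesion genes are not reported here; the other genes described in detail were chosen after their values were seen. Ranks use the mean of the percentiles of fold enrichment in A and B. Members, classes and lists were chosen with earlier results of these data known. Alternatives were stricter lists, other overlaps and flanks, narrower classes and each replicate alone.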

Additional observations from a re-analysis of the deposited data

How the results depend on the processing

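Counts and medians are given in the order mesenchymal, leukocyte and platelet, epithelial, adaptor. With reciprocal overlap of 50%, the adaptor median was 5 instead of 6. With entries above the median −log10 q of their list, medians were 2, 0, 1 and 2, and own ends were 3, 1, 0 and 6. Over all genes the median was then 1, and 31.1% had an own end. With the 10000 strongest entries of each list, genes with a peak were 6, 3 and 3 in the first 3 classes. Medians were 0.5, 0, 1 and 1, with mesenchymal below epithelial, and own ends were 0, 0, 0 and 4. Over all genes 41.6% then had a peak, the median was 0 and 23.2% had an own end. In gene bodies alone, 2 leukocyte and platelet and 3 epithelial genes had a peak, against 48.7% of all genes. Medians were 2.5, 0, 1 and 3, against 0 over all genes. With 50 kb on either side, medians were 6.5, 3, 5 and 8, against 2 over all genes. Without peaks at an end of another gene, 2 leukocyte and platelet genes had a peak, their median was 0 with 0 own ends, and the adaptor median was 4. Over all genes 50.5% then had a peak, the median was 1 and 30.5% had an own end. Without genes shared between classes, 3 of 9 mesenchymal genes had an own end, against 41.9% of all genes. With 2500 bp around an end, own ends were 7, 2, 0 and 10. The share over all genes was not counted at that width, so these numbers have no value to stand beside. Leaving out replicate A or B, genes with a peak ranged from 12 to 12, 5 to 7, 5 to 5 and 16 to 16, and own ends from 7 to 8, 1 to 2, 0 to 2 and 10 to 11. The medians without a replicate ranged from 4 to 5, 1 to 2, 2 to 5 and 6 to 7. Over all genes, 67.6% to 71.0% had a peak, 44.8% to 47.0% had an own end, and the median was 1 to 2.
The cause of these shifts was not tested beyond what each setting leaves out. Depth is unknown, so an absent peak is one not called, and absence of accessibility cannot be read from it.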

Other observations

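The genes differed in how many entries were found in only 1 replicate. A had more entries than B at 27 of the 43 genes, B had more at 4 (Itga1, Itgae, Zyx and Actn4), and 12 had equal numbers. Entries of A alone were most numerous at Itga9, with 12, and Tns1, with 11, and those of B alone at Tns3, with 7. At Zyx and Actn4, 3 entries each were found in B alone and 0 in A alone. Entries over a start in 1 replicate were found in A for Itga10, at 9.67, and for Tns2, at 4.89. No explanation was tested.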
